A study of Mus musculus with 2 samples.

Results

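Library 2 of a single-cell RNA dataset from mouse tumours held 70 barcodes with the RNA of neutrophils that the submitters' cell annotation does not list. They were chosen by measured values: a droplet barcode absent from the annotated cells of library 2, at least 500 gene UMIs (unique molecular identifiers, one per captured RNA molecule), at least 85% of hashtag UMIs from 1 hashtag, and at least 10 UMIs of mouse S100a8. Of 2979617 barcodes in the matrix, 10476 were annotated cells. A further 5815 were unannotated with at least 500 UMIs, and 3018 of these had a clear hashtag. S100a8 selected 70 of those 3018. Because S100a8 was used to pick the barcodes, all levels below are descriptions of the picked barcodes and carry no test.

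The leukocytes came from MC38 tumours, a mouse colon adenocarcinoma line implanted subcutaneously into mice whose IgG receptors are the human Fcγ receptors, and were sorted for CD45, the surface protein common to leukocytes. All mice were of this genotype, labelled human FCR mice. They received PBS (Untreated) or an in-house antibody to mouse GITR, a costimulatory receptor of T cells, on a human IgG1 backbone, at 100 µg per mouse by intraperitoneal injection, given 2 times 3 days apart, and were taken 4 days post treatment. The annotation describes N297A as agonist and Fc-null, GA-aFuc as agonist with enhanced Fc binding, and GITR/Syn GA-aFuc as enhanced in the same way but non-agonist. Library 2 pools 6 mice, told apart by hashtag antibodies: GA-aFuc replicates 2 and 3, GITR/Syn GA-aFuc replicates 2 and 3, Untreated replicate 3 and N297A replicate 3. With 1 or 2 mice per treatment, no treatment was compared. Ages and sexes of the mice are not in the labels.

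Neutrophils are short-lived granulocytes made in bone marrow, drawn into tissue by chemokines that bind CXCR2 and kept alive by G-CSF through its receptor CSF3R. They carry little RNA, and much of it encodes the calcium-binding pair S100A8 and S100A9. Their granule proteins are made in order during maturation, first those of the primary granules, then of the secondary and last of the tertiary granules, so that a mature cell has protein from early genes but little of their RNA. In tumours, neutrophils are known to make chemokines and interleukin 1 and are studied for both pro-tumour and anti-tumour roles.

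The barcodes were shallow. They held 1681 to 33220 gene UMIs with a median of 2776, against medians of 9025 in annotated monocytes and 14330 in annotated macrophages. The median number of genes detected was 1064, against 2957 in monocytes. Mitochondrial genes took a median of 0.330% of UMIs, against 1.19% in monocytes. None had fewer UMIs than the shallowest annotated cell, which had 819, and only 1.12% of annotated cells had fewer UMIs than the median neutrophil barcode. No barcode lay between 4954 and 9128 UMIs. The 62 barcodes under 5000 UMIs and the 8 above are therefore given separately where they differ. Together the 70 held 319417 UMIs, of which the 8 largest held 153027, so pooled levels over all 70 are set in large part by 8 barcodes.

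**Figure D1:**
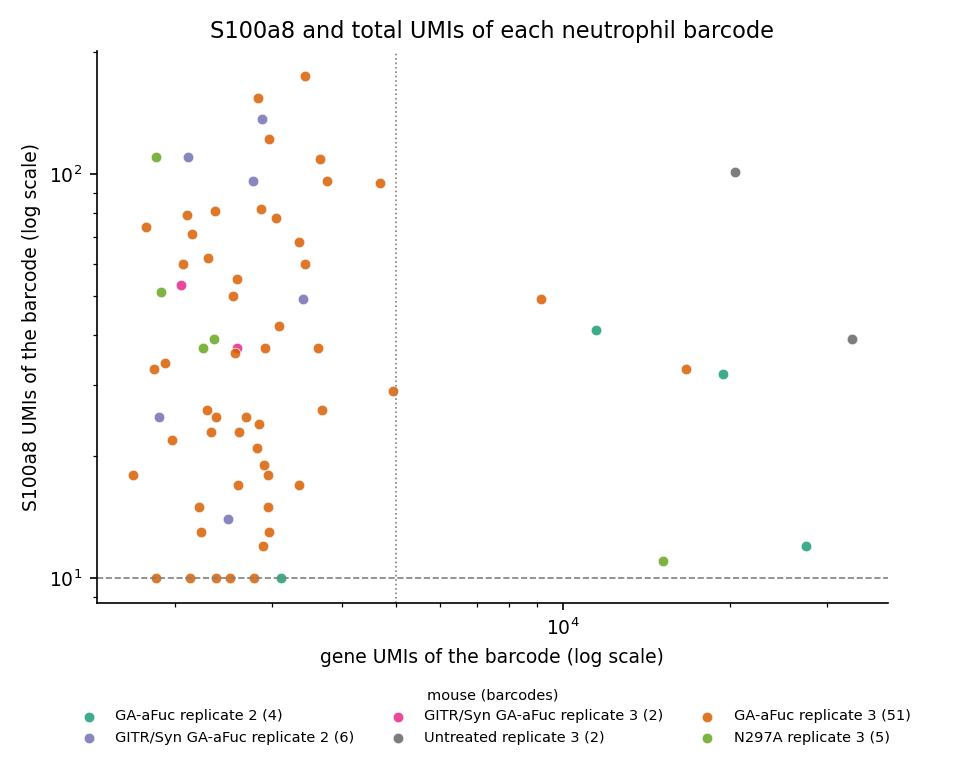
Each point is 1 of the 70 neutrophil barcodes, with its gene UMIs (x axis, log scale) against its S100a8 UMIs (y axis, log scale), coloured by mouse; the dashed line is the minimum of 10 S100a8 UMIs and the dotted line 5000 gene UMIs. The 62 barcodes to the left lie between 1681 and 4954 UMIs and the 8 to the right between 9128 and 33220.

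Sex-linked RNA bore on whether barcodes belonged to the mouse of their tag. Xist, the RNA of the inactive X chromosome, was 567 and 551 CPM (counts per 1000000 gene UMIs, pooled over the barcodes of a group) in annotated cells of GA-aFuc replicate 2 and GITR/Syn GA-aFuc replicate 2, and 1.64 to 1.98 CPM in the other 4 mice, where 4 Y-linked genes (Uty, Ddx3y, Eif2s3y and Kdm5d) were detected instead. The neutrophil barcodes of GA-aFuc replicate 2 had 46 UMIs of Xist and 2 of the Y-linked genes. Those of GA-aFuc replicate 3, Untreated replicate 3 and N297A replicate 3 had 43, 7 and 7 UMIs of the Y-linked genes, with 2, 1 and 0 of Xist. In these 4 mice the more abundant RNA was that of the annotated cells. Under 5000 UMIs, GA-aFuc replicate 3 had 34 of its Y-linked UMIs. There GA-aFuc replicate 2 had 7 of its 46 Xist UMIs, N297A replicate 3 had 2 Y-linked UMIs, and the Untreated mouse had no barcode. In those last 3 mice the match rests mostly on larger barcodes, which also held markers of other cells. GITR/Syn GA-aFuc replicate 3 had a single Y-linked UMI and no Xist, too few to read. The 6 barcodes tagged GITR/Syn GA-aFuc replicate 2 had 0 UMIs of either among 15541, where the Xist level of its annotated cells would give 8.57, so they did not match that mouse in this RNA (upper bound 237 CPM); the cause was not tested. Results that rest on them are given as those of the tag, and without them 64 barcodes remain, 79.7% of them from GA-aFuc replicate 3.

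One mouse supplied most of the barcodes. GA-aFuc replicate 3 gave 51 of 70, or 72.9% (95% exact binomial interval 60.9 to 82.8%, counting error only), and 49 of the 62 under 5000 UMIs. GITR/Syn GA-aFuc replicate 2 gave 6, N297A replicate 3 gave 5, GA-aFuc replicate 2 gave 4, and GITR/Syn GA-aFuc replicate 3 and Untreated replicate 3 gave 2 each. As a share of all barcodes of a mouse with at least 500 UMIs and a clear hashtag, GA-aFuc replicate 3 stood at 2.36% (1.76 to 3.09%) of 2160. The other 5 mice lay between 0.0867% and 0.282%, with the highest upper bound at 0.612%. The interval of the leading mouse did not overlap any other. The second mouse on the same antibody, GA-aFuc replicate 2, was at 0.178% (0.0484 to 0.454%), so the intervals of the 2 mice on this antibody did not overlap. Under 5000 UMIs the 4 barcodes of GA-aFuc replicate 2 came down to 1 and the 2 of the Untreated mouse to 0, which allows a share of up to 0.169% there.

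**Figure D2:**
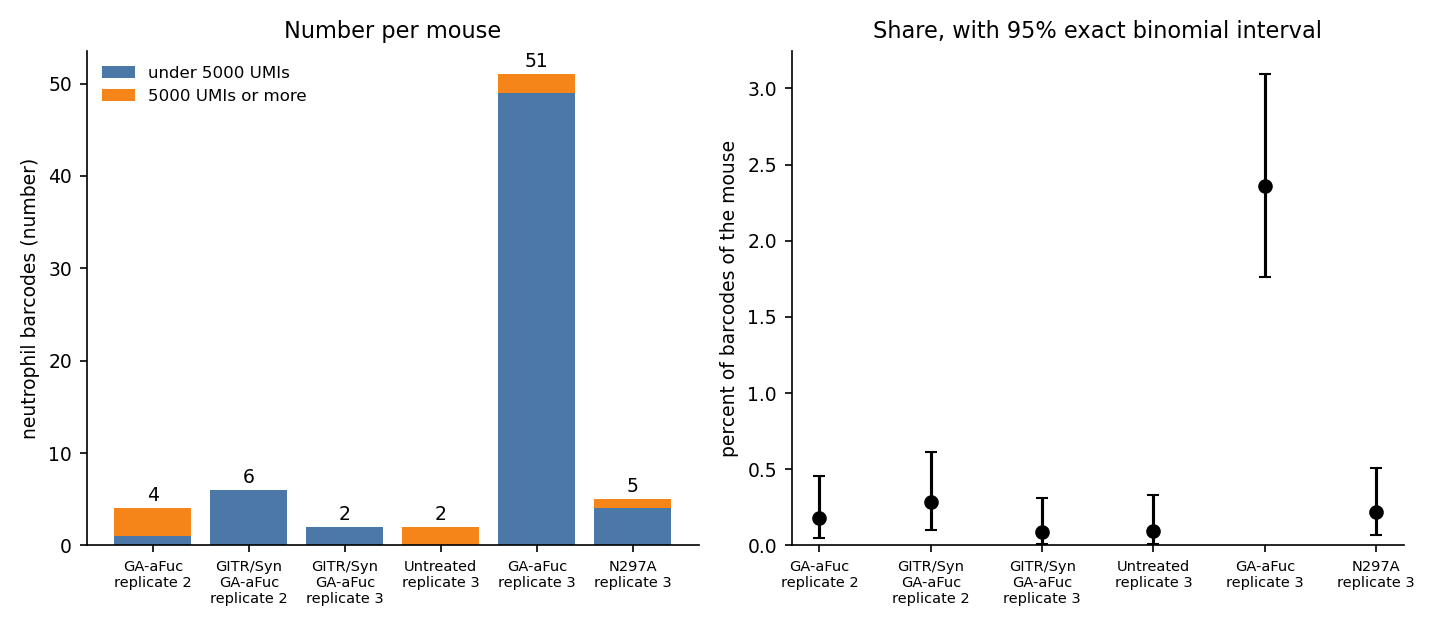
Left, number of neutrophil barcodes in each of the 6 mice, stacked by whether the barcode had under 5000 UMIs or more; right, their percent of the mouse's barcodes with at least 500 UMIs and a clear hashtag, with 95% exact binomial intervals. GA-aFuc replicate 3 stands at 51 barcodes and 2.36%, and the other 5 mice at 2 to 6 barcodes and at most 0.282%.

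Barcodes that the rule left out were looked at in the same way. All 8 annotated cells with at least 10 S100a8 UMIs were from this mouse: 6 annotated as monocytes, 1 as a macrophage and 1 as a CD8 T cell. The richest of them, an annotated monocyte of 8345 UMIs, had 315 UMIs of S100a8 and 380 of S100a9. S100a8 in annotated monocytes was 132 CPM in this mouse and 1.02 to 9.04 CPM in the other 5. The 6 annotated monocytes held 567 of the 616 S100a8 UMIs of that mouse's 532 monocytes, and without them the level was 10.6 CPM. A further 42 unannotated barcodes passed the S100a8 minimum and failed on the hashtag share, 13 with the main hashtag of GA-aFuc replicate 3, 9 of GA-aFuc replicate 2, 6 each of GITR/Syn GA-aFuc replicate 3 and Untreated replicate 3, and 4 each of the other mice. Of the 16 under 5000 UMIs, 10 were from GA-aFuc replicate 3. The median of the 42 was 12090 UMIs, and the main hashtag held a median of 65.5% of hashtag UMIs.

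The label was then set against the defining markers; S100a8 itself was fixed by the rule. In the 62 barcodes under 5000 UMIs, pooled S100a8 was 18080 CPM (95% Poisson interval 17440 to 18740) and S100a9 was 23200 CPM, against 24.7 and 23.2 CPM in annotated monocytes of all mice. S100a9 was found in 60 of the 62, with 0 to 233 UMIs and a median of 41. Csf3r, the G-CSF receptor, was 817 CPM and found in 41 barcodes, against 59.0 CPM in monocytes. Cxcr2, the neutrophil chemokine receptor, was 517 CPM and found in 34, against 1.94 CPM. G0s2, an inhibitor of the lipase ATGL, was 3660 CPM and found in 44, against 2.34 CPM. Retnlg, a resistin-like secreted protein of mature mouse neutrophils, was 427 CPM and found in 13, against 0.836 CPM. In monocytes of GA-aFuc replicate 3 alone, S100a9 was 144 CPM, Csf3r 68.2, G0s2 10.3, Cxcr2 9.44 and Retnlg 5.15. The 5 markers that the rule did not use were thus above monocytes, and also above macrophages and the droplets of 1 to 100 UMIs that hold free RNA, where S100a9 was 51.0 CPM and G0s2 21.5 CPM. Over all 70, 54 barcodes carried at least 2 of Csf3r, Cxcr2, Retnlg and G0s2, 9 carried 1 and 7 carried none.

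The markers were not all present in every mouse. Under 5000 UMIs, the single barcode of GA-aFuc replicate 2 had no S100a9, Cxcr2 or Retnlg, and the 4 of N297A replicate 3 had no Retnlg. Csf3r and G0s2 were detected in all 5 mice with such barcodes. S100a9 was 43560 CPM in the 6 barcodes of GITR/Syn GA-aFuc replicate 2, 40480 CPM in the 2 of GITR/Syn GA-aFuc replicate 3, 28630 CPM in the 4 of N297A replicate 3 and 20460 CPM in the 49 of GA-aFuc replicate 3. The leading mouse thus had the most barcodes and the lowest S100a9 level of these 4 mice. Retnlg was spread unevenly: 81.7% of its 71 UMIs in the 62 barcodes lay in 5 of them.

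As a pool, the 8 barcodes of 9128 UMIs or more carried markers of other cells as well. Their pooled S100a8 was 2078 CPM and S100a9 3581 CPM, well below the 62. C1qa, a complement subunit made by macrophages, was 4097 CPM in the 8, 174 CPM in the 62 and 5062 CPM in annotated macrophages. The 10 macrophage markers together took 0.113 to 3.94% of UMIs in the 8, with a median of 1.74%, against 0 to 0.438% and a median of 0.135% in the 62. In annotated monocytes the median was 0.837% and in macrophages 2.19%. In both Untreated barcodes the macrophage list was high, with 457 and 677 UMIs beside 101 and 39 of S100a8. The smallest macrophage share was in a GA-aFuc replicate 2 barcode of 11498 UMIs, which had 41 UMIs of T cell markers, among them 9 of Cd3d and 4 of Cd3e, parts of the T cell receptor complex. Another, from GA-aFuc replicate 3, had 204 UMIs of Arg1. No caller of doublets was run, and whether the 8 are doublets was not tested. The 8 also carried neutrophil markers beyond S100a8: each had 5 to 140 UMIs of S100a9 and at least 2 of Csf3r, Cxcr2, Retnlg and G0s2, with pooled G0s2 at 771 CPM. The label describes the 62 as a pool, while the 8 as a pool held neutrophil RNA together with markers of other cells. Not each of the 8 did so clearly. The barcode of 9128 UMIs had 2 UMIs of C1qa, none of the T cell markers and a macrophage share of 0.603%, below the monocyte median.

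**Figure D3:**
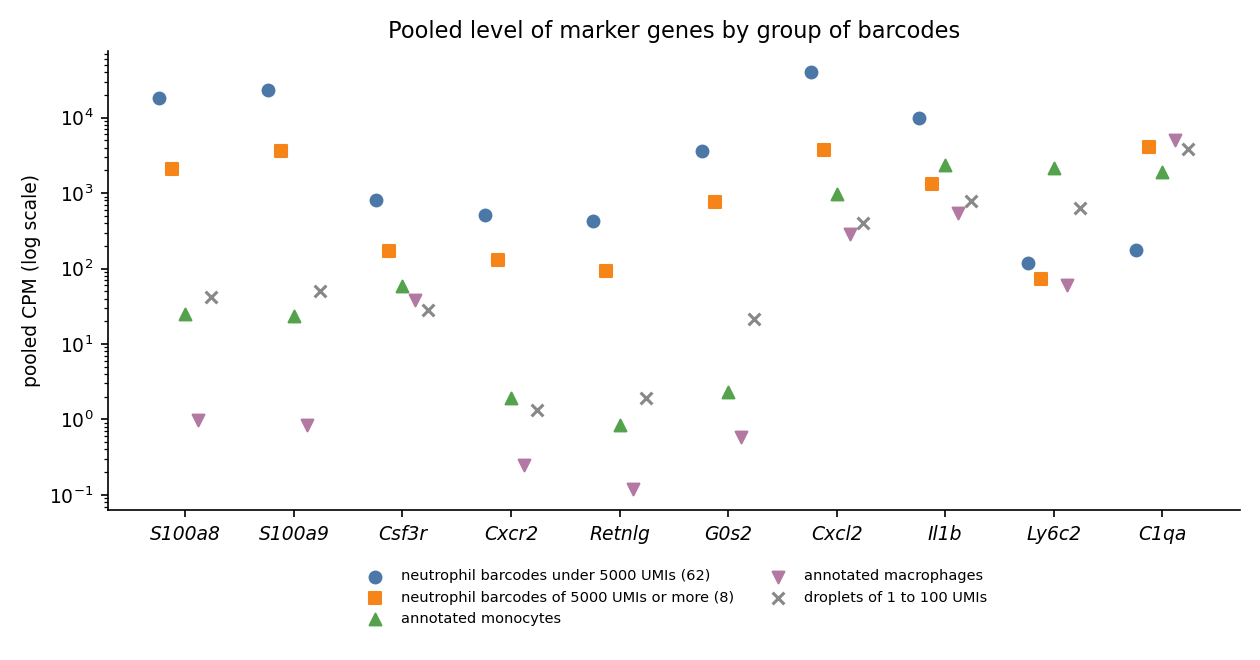
Pooled level (CPM, log scale) of the 6 neutrophil markers, Cxcl2, Il1b, the monocyte gene Ly6c2 and the macrophage gene C1qa in the 62 smaller and 8 larger neutrophil barcodes, annotated monocytes and macrophages, and droplets of 1 to 100 UMIs. The 62 stand highest for the first 8 genes, from S100a8 at 18080 CPM to Il1b at 10050 CPM, and C1qa stands at 4097 CPM in the 8 against 174 CPM in the 62.

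Markers of monocytes, macrophages and dendritic cells were low in the 62, and those of the other cells had few UMIs. The 9 monocyte genes summed to 577 CPM (467 to 705) against 6902 CPM in monocytes, with Ly6c2 at 120 CPM against 2167, and 1 UMI of Ccr2, the monocyte chemokine receptor. F13a1 had no UMI. The 10 macrophage genes were all detected and summed to 1442 CPM against 12190 CPM in monocytes and 19850 CPM in the droplets of 1 to 100 UMIs. Of 10 dendritic cell genes, only the MHC class II genes H2-Aa, H2-Ab1 and Cd74, which monocytes also express, had UMIs, at 938 CPM in sum. T cell genes had 3 UMIs (3 of 8 genes), NK cell genes 7 (3 of 6), eosinophil genes 7 (3 of 7, with Epx and Prg2 at 0), mast cell and basophil genes 2 (1 of 7), fibroblast genes 15 (3 of 6) and epithelial genes 2 (1 of 5). B cell and erythrocyte genes had none. Few UMIs did not always mean a level below monocytes. Eosinophil genes were at 42.1 CPM (16.9 to 86.7), against 7.93 in monocytes and 4.74 in the small droplets. Fibroblast genes were at 90.15 CPM (50.5 to 148.7), against 19.4 in monocytes and 222 in the small droplets. NK cell genes were below monocytes, at 42.1 against 130 CPM. For the other lists given by UMIs the interval held the monocyte level.

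Against annotated monocytes of the same mouse, the 51 barcodes of GA-aFuc replicate 3 had 160 genes at least 4-fold higher among the 1271 with at least 20 UMIs in, and detection in 20% or more of, those barcodes, which is 12.6%. Of 1520 genes tested for the other direction, 194 or 12.8% were at least 4-fold lower. The barcodes were picked on S100a8, and genes were tested for higher only where these barcodes held enough UMIs. Nothing is therefore read from these counts, or from the counts and medians of the lists below. The same 12.6% and 12.8% over all tested genes stand beside the counts given for each list below. The fixed list of 6 defining markers had 5 members testable and 5 higher, while Retnlg was in too few barcodes. S100a8 is among those 5, and its higher level was fixed by the rule. The median log2 ratio over the 1271 genes was 0.33.

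The highest ratios belonged to genes known from neutrophils and to others that are less studied. Cstdc4, a cystatin-domain gene of the stefin A cluster, stood at 2260 CPM against 4.93 CPM in monocytes, a ratio of 458. G0s2 followed at 346.5 and S100a9 at 131. The 6 annotated monocytes rich in S100a8 lower these ratios: without them, a comparison added after seeing the data, S100a9 was at 2358, Cstdc4 at 1741, S100a8 at 1364 and G0s2 at 785, and 164 genes were 4-fold higher in place of 160. Stfa2l1, another stefin gene, was 859 CPM against 7.08 CPM, a ratio of 121. Stefin genes are near copies of each other, so how reads were divided among them is uncertain, and the same holds for H2-Q10 (ratio 116) of the MHC class I family. Asprv1, an aspartic protease, had a ratio of 179, Ankrd33b 176, 4732465J04Rik 159.7, S100a8 109.5, Mreg 109, Il36g 93.5 and Mmp9 89.8. Il36g, a cytokine of the interleukin 1 family, was found in 29 of the 62 barcodes at 415 CPM, against 0.769 CPM in monocytes of all mice. The last of the 15 highest were Spatc1 (79.8), Gm20406 (69.7) and Gm28981 (62.5).

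No RNA of the primary granule genes was found, and the secondary granule genes were uneven. None of the 5 primary granule genes in the file (Mpo, Elane, Prtn3, Ctsg and Ms4a3) had a single UMI among 319417, which allows up to 11.6 CPM in sum. Monocytes had 4.21 CPM, below that bound, so the absence does not set the barcodes apart from monocytes. The 8 secondary granule genes summed to 517 CPM (413 to 638) in the 62, against 425 CPM in monocytes. Of 8 secondary granule genes, Camp, Ngp and Fcnb had none, Ltf (lactoferrin) had 15 UMIs in 9 barcodes and Cebpe, the factor of that stage, had 3. Ltf was nonetheless 101.6-fold above the leading mouse's monocytes (87.2 against 0.858 CPM), on 14 UMIs, too few for the list of higher genes. Lcn2, encoding the iron-scavenging lipocalin 2, had 58 UMIs in 22 barcodes and was 53.9-fold above them. Chil3 had 119 UMIs, of which the 62 held 10.

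The 16 genes of tertiary granules and mature neutrophils were all detected. In the leading mouse 9 of 12 testable were at least 4-fold above monocytes and the median log2 ratio was 2.90. These lists overlap with the markers, and testable genes were those with enough UMIs in these barcodes, so nothing is read from either value. In the 62 barcodes, Slpi, a secreted inhibitor of elastase, was 1749 CPM against 77.2 CPM in monocytes. Il1r2, the decoy receptor for interleukin 1, was 1268 CPM against 278.7. Mmp9, the gelatinase of tertiary granules, was 451 CPM against 1.17. Mxd1, a MYC antagonist, was 962 CPM and Trem1 709 CPM. The list as a whole took 0 to 2.23% of UMIs per barcode with a median of 0.806%, against a median of 0.110% in monocytes.

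Chemokine and cytokine RNA made up a large share of the transcripts. The 19 genes of this list summed to 75140 CPM in the 62, against 8819 CPM in monocytes. Cxcl2, itself a ligand of CXCR2, had the highest level of any gene with 40780 CPM (39820 to 41770) in the 62, against 977 CPM in monocytes and 407 CPM in the small droplets. In monocytes of GA-aFuc replicate 3 alone, Cxcl2 was 1728 CPM. Cxcl2 was found in 61 of the 62, with 0 to 510 UMIs and a median of 81. By mouse, Cxcl2 was 46350 CPM in GA-aFuc replicate 3, 34020 CPM in N297A replicate 3, 14480 CPM in GITR/Syn GA-aFuc replicate 2, 6431 CPM in the single barcode of GA-aFuc replicate 2 and 2584 CPM in GITR/Syn GA-aFuc replicate 3. The 2 mice with the highest S100a9 were thus below the leading mouse for Cxcl2.

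Il1b, encoding interleukin 1β, was 10050 CPM in the 62, against 2392 CPM in monocytes. It ran from 2894 CPM in the barcode of GA-aFuc replicate 2 to 20490 CPM in N297A replicate 3, with 9425 CPM in the leading mouse, so that the leading mouse was not the highest. Ccl3 and Ccl4, inflammatory chemokines, were 5511 and 8240 CPM, against 183 and 862 in monocytes. Ccl3 was uneven over mice: 7308 CPM in N297A replicate 3, 6286 CPM in GA-aFuc replicate 3, 965 CPM in GA-aFuc replicate 2, 386 CPM in GITR/Syn GA-aFuc replicate 2 and 0 in GITR/Syn GA-aFuc replicate 3. Cxcl3 was 3768 CPM, with 4564 CPM in the 49 barcodes of GA-aFuc replicate 3 and 379 CPM in the 13 of the other mice. Il1rn, the antagonist of the interleukin 1 receptor, was 2560 CPM. Osm, Il1a and Tnf were 914, 703 and 421 CPM. Not every inflammatory gene was high: Il6 had 0 UMIs in the 70 barcodes, Cxcl1 had 4, and Cxcl9 and Ccl5 were more than 4-fold below the leading mouse's monocytes, the 2 lower of 14 testable. Of 12 testable in the other direction, 9 were higher, a count from which nothing is read.

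Genes reported for neutrophils inside tumours formed the most abundant list, at 80910 CPM in the 62 against 7740 CPM in monocytes. Of its 20 genes, 16 had enough UMIs in these barcodes to be testable. Of those 16, 10 were higher, with a median log2 ratio of 2.80, and nothing is read from this count or median. By mouse the sum ran from 12700 CPM in GITR/Syn GA-aFuc replicate 3 to 89310 CPM in GA-aFuc replicate 3. The list shares 7 chemokine and cytokine genes with the chemokine list above, among them Cxcl2 with 40780 of the 80910 CPM. Beyond these, Hilpda, which coats lipid droplets and is induced by low oxygen, was 3450 CPM against 77.6. Cstb was 2200 CPM against 672, Cd274, encoding the checkpoint ligand PD-L1, 1376 CPM against 395, and Vegfa 277 CPM against 152; these 3 stayed under 4-fold. Spp1, encoding osteopontin, reached 1328 CPM with 79.2% of its UMIs in 5 barcodes. Siglecf, a receptor used to mark one kind of tumour neutrophil, had 1 UMI, and Dcstamp none.

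Hilpda differed between mice. It was 4111 CPM in the 49 barcodes of GA-aFuc replicate 3, 5788 CPM in the 1 of GA-aFuc replicate 2, 129 CPM in the 6 of GITR/Syn GA-aFuc replicate 2, and 0 in GITR/Syn GA-aFuc replicate 3 and N297A replicate 3, where the intervals reach 794 and 442 CPM. The value of GA-aFuc replicate 2 rests on 1 barcode, and the Untreated mouse had no barcode under 5000 UMIs. No antibody was compared.

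Of genes linked to T cell suppression by neutrophils (often named PMN-MDSC), 5 of 9 testable were higher: the lectin receptors Clec4d (2801 CPM in the 62 against 160 in monocytes), Clec4e (1316 CPM) and Clec4n (823 CPM), Arg2 and Ptgs2. Arg2, the mitochondrial arginase, was 914 CPM against 41.7, and Ptgs2, the inducible cyclooxygenase, 1160 CPM against 155. Cd14 was 2458 CPM and Wfdc17 1070 CPM. Arg1 came to 240 UMIs in the 70 barcodes and only 6 in the 62. Nos2, with 9 UMIs, was the 1 lower gene of 10 testable, and Slc27a2 had none.

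Receptors for migration included Cxcr2, Ccrl2, Fpr1 and Fpr2 among the 4 higher of 13 testable. Fpr1, the receptor for formylated bacterial peptides, was 355 CPM in the 62 against 4.98 in monocytes. Ccrl2, which binds chemerin, was 1749 CPM against 213. Cd44 and Ccr1 were 1875 and 1454 CPM, under 4-fold. Of cytokine receptors, 3 of 7 testable were higher: Csf3r, Il1r2 and Il1rap, the shared chain of the interleukin 1 receptor, at 1046 CPM against 44.1. Csf2rb, the shared chain for GM-CSF, was 439 CPM against 286, and Ifngr1 90.2 CPM against 218.

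Interferon-response genes were present at 15550 CPM in sum, against 9836 CPM in monocytes, with 3 of 16 testable genes at least 4-fold higher (Isg20, Ifitm1 and Slfn4). Isg15, a ubiquitin-like modifier, was 2506 CPM, Rsad2, the antiviral enzyme viperin, 2001 CPM and Ifitm3 1965 CPM. The list's sum per mouse lay between 10120 and 22040 CPM, with the leading mouse at 15610 CPM inside that range. Of 13 testable genes of hypoxia and glycolysis, 2 were higher, Hilpda and the oxygen sensor Egln3, while Ldha, Pkm and Gapdh were 1334, 1160 and 1136 CPM, against 642, 841 and 1346 in monocytes. None of 10 testable survival and cell death genes was 4-fold higher. Their highest levels were Mcl1, the anti-apoptotic protein neutrophils depend on, at 2668 CPM against 1012, Pim1 at 1521 and Nlrp3 at 1352 CPM. Bcl2a1b was 721 CPM and has near copies, so its share is uncertain. Over all tested genes 12.6% were at least 4-fold higher, so nothing is read from the counts of these lists.

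The 6 genes of NADPH oxidase, the enzyme of the oxidative burst, summed to 1725 CPM in the 62, against 3254 CPM in monocytes. None of 5 testable NADPH oxidase genes was higher, and Cybb, its catalytic chain, was the 1 lower of 6, at 84.1 CPM in the 62 against 860 in monocytes. Cyba was 505 CPM against 1474, and the cytosolic subunit Ncf1 was 210 CPM against 169. Of S100 and cytoskeleton genes, S100a9 was the 1 higher of 10 and S100a4 and S100a10 the 2 lower of 12. Over all tested genes 12.6% were higher and 12.8% lower, so nothing is read from the counts of these lists. Tmsb4x, Actb and Tyrobp were 6587, 3522 and 3690 CPM. The only cell cycle gene testable, Hmgb2, was not higher, at 589 CPM. Mki67 and Top2a had 1 and 2 UMIs in the 62.

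Other genes with the highest pooled levels over the 70 belonged to genes that many leukocytes express. Fth1 and Ftl1, the ferritin chains that store iron, were 33420 and 8534 CPM in the 62, 2.22-fold and 2.02-fold the monocytes of the leading mouse in its own barcodes under 5000 UMIs. Srgn, the proteoglycan core of secretory granules, was 10330 CPM against 2129. Malat1, a nuclear noncoding RNA, was 29940 CPM. Fau, H3f3b and B2m followed at 5451, 5211 and 3366 CPM.

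The mice carry human receptors for IgG, and RNA of these was detected in the barcodes, with the level in free RNA given further below. FCGR3B, the GPI-linked receptor CD16b, had the highest level of the human receptors, 2939 CPM (2684 to 3211) in the 62, against 2930 CPM in monocytes and 3520 CPM in macrophages. FCGR2B, the inhibitory receptor, was 908 CPM (768 to 1064) against 1141 and 384. FCGR2A, the activating CD32a, was 529 CPM (424 to 652) against 917 and 1045. FCGR3A (CD16a) was 355 CPM against 320 and 374, and FCGR1A (CD64) 102 CPM against 120 and 230. The pool was thus nearer to monocytes than to macrophages for FCGR2B. For FCGR2A it was below both, but the mice differed: the 49 barcodes of GA-aFuc replicate 3 had 297 CPM (212 to 404) and the 6 tagged GITR/Syn GA-aFuc replicate 2 had 2960 CPM (2167 to 3948), above both. Without those 6 the pool was 278 CPM, and without GA-aFuc replicate 3 it was 1517 CPM. FCGR2C had 1 UMI. FCGR3A and FCGR3B, like FCGR2A, FCGR2B and FCGR2C, are near copies, so the division of reads within each group is uncertain. Of the mouse receptors, Fcgr1 and Fcgr4 had 0 UMIs, with 3 counts equal to 18.0 CPM, and Fcgr3 had 6. Fcgr2b was 349 CPM against 714 in monocytes, and Fcer1g, the signalling chain that activating receptors share, was 1671 CPM against 3295.

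Free RNA sets a background for these receptors, since in the droplets of 1 to 100 UMIs FCGR3B was 1978 CPM, FCGR2B 504 CPM and FCGR3A 211 CPM, below the 62, while FCGR2A at 630 CPM and FCGR1A at 121 CPM were above the 529 and 102 CPM of the 62. Annotated CD8 T cells, which should lack FCGR3B, had it at 137 CPM, and 56.5% of them had a UMI at a median of 8505 UMIs. In the 62, 79.0% had a UMI at a median of 2599. Thinned to 500 UMIs, with no barcode left out, the expected share was 53.8% in the 62, 65.7% in monocytes, 77.5% in macrophages and 6.06% in CD8 T cells. For FCGR2B the thinned shares were 34.3% in the 62 and 2.22% in CD8 T cells, for FCGR3A 15.1% and 2.93%, for FCGR2A 12.8% and 1.80%, and for FCGR1A 4.23% and 0.286%. Each of the 5 was thus above its share in CD8 T cells. FCGR2A was uneven, with 88 UMIs in 21 of the 62 barcodes and 72.7% of them in 5. FCGR3B by mouse was 6885 CPM in GITR/Syn GA-aFuc replicate 2, 4091 CPM in GITR/Syn GA-aFuc replicate 3, 2553 CPM in GA-aFuc replicate 3, 2156 CPM in N297A replicate 3 and 322 CPM in the barcode of GA-aFuc replicate 2, the same 2 mice leading as for S100a9.

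**Figure D4:**
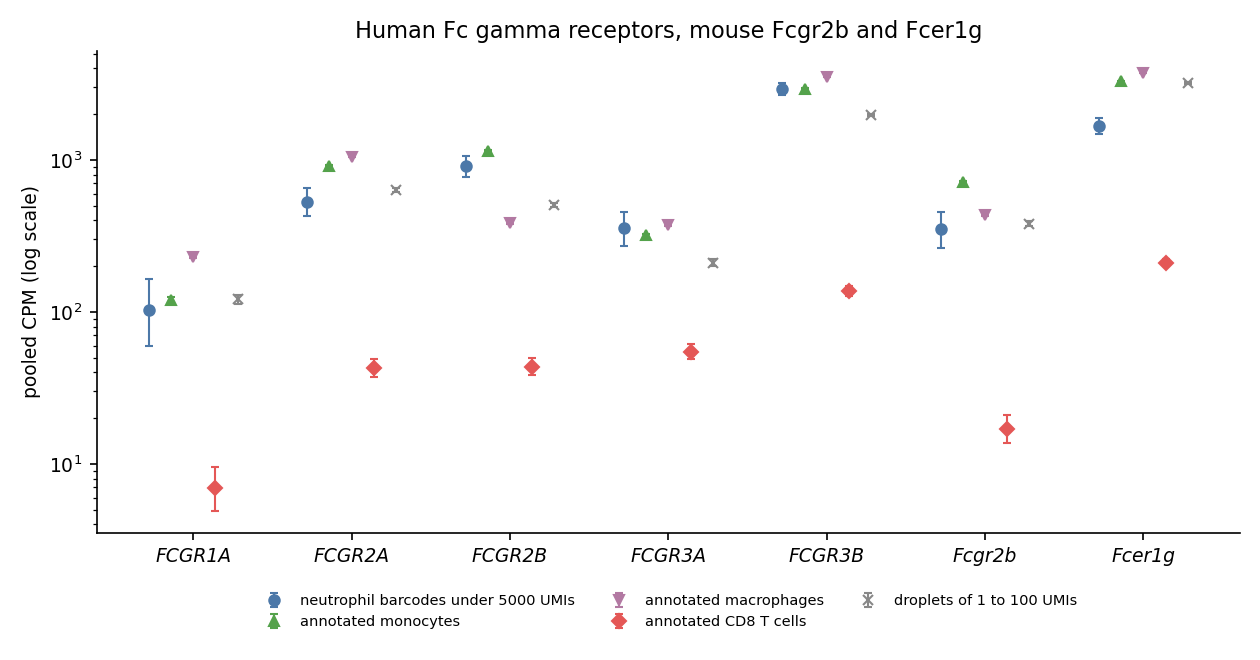
Pooled level (CPM, log scale) of 5 human Fcγ receptor genes, mouse Fcgr2b and Fcer1g in the 62 neutrophil barcodes under 5000 UMIs, annotated monocytes, macrophages and CD8 T cells, and droplets of 1 to 100 UMIs, with 95% Poisson intervals (counting error only). The 62 stand above CD8 T cells for all 7 genes, with FCGR3B at 2939 against 137 CPM.

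The 62 barcodes differed among themselves. The tumour neutrophil list took from 1.11 to 23.0% of a barcode's UMIs, with a median of 6.71%. The 49 barcodes of GA-aFuc replicate 3 had a median of 7.30% and the 13 of the other mice 3.89%. Cxcl2 made up 40780 of the pooled 80910 CPM of this list, so these shares rest in large part on 1 gene. Barcodes with more of the mature list tended to have less of the tumour list, with Spearman's rho of -0.39 and Pearson's r of -0.34 over the 62, and -0.31 and -0.23 over the 49 of the leading mouse. Hilpda followed the same direction: its share ran against that of S100a9 (rho -0.53, r -0.43) and with that of Ccl3 (rho 0.50, r 0.41). Rsad2 and Isg15, both induced by interferon, varied together (rho 0.70, r 0.59), and so did Cxcl2 and Ccl3 (rho 0.65, r 0.59). These are descriptions over barcodes of 1 library, mostly of 1 mouse. The values are shares of the same total, so one large share lowers the others, and in sparse counts a weak value is no finding. Neither list followed depth closely (rho 0.18 for the tumour list and -0.07 for the mature list against UMIs).

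**Figure D5:**
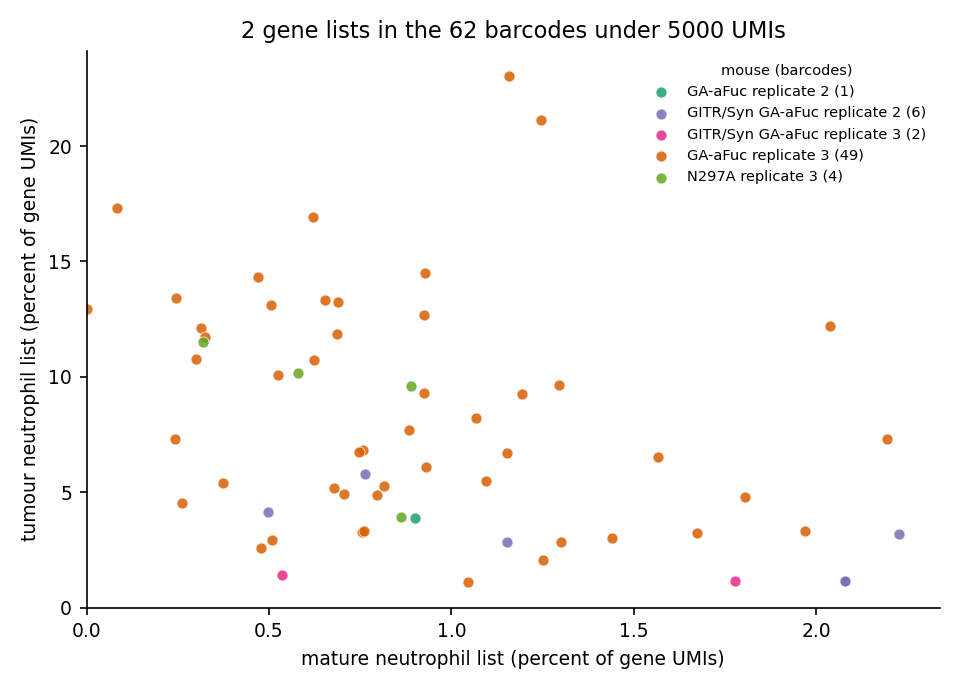
Each point is 1 of the 62 neutrophil barcodes under 5000 UMIs, with the percent of its gene UMIs in the mature neutrophil list (x axis) against the tumour neutrophil list (y axis), coloured by mouse. The mature list reaches 2.23% and the tumour list 23.0%, and the median of the tumour list is 7.30% in the 49 barcodes of GA-aFuc replicate 3 and 3.89% in the other 13.

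The 13 barcodes of the other mice under 5000 UMIs, from 4 mice, show which levels rest on GA-aFuc replicate 3. Without that mouse the pool fell short of the 62 for Cxcl2 (17100 CPM), Ccl3 (2212), Hilpda (632), Rsad2 (600.5), Cstdc4 (790.1), Fth1 (18710), Clec4e (822), Osm (569), Il1a (379), Fpr1 (189.6), Tnf (158) and Vegfa (94.8), and Spp1 was at 0. It stood above the 62 for S100a9 (34890 CPM), FCGR3B (4583), Cd44 (3350), Wfdc17 (3160), Csf3r (1391), Csf2rb (790.1), Retnlg (695) and FCGR3A (569). Among genes named for their level, Ldha (885), Ftl1 (5657), H3f3b (2750) and Stfa2l1 (348) were also lower without that mouse, and Actb (6099) and Ifitm1 (2117) higher. Each of these moved by more than 1.5-fold, on 13 barcodes, and other genes named above with small counts did so too. The 6 tagged GITR/Syn GA-aFuc replicate 2, which did not match that mouse in Xist, held 677 of the 1104 S100a9 UMIs of the 13. They also held 107 of 145 for FCGR3B, 31 of 44 for Csf3r and 21 of 22 for Retnlg. In N297A replicate 3 and the single barcode of GA-aFuc replicate 2, FCGR3B, Csf3r and Retnlg were below the 62. In GITR/Syn GA-aFuc replicate 3, FCGR3B (4091 CPM) and Csf3r (1077) were above it and Retnlg (215) below.

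The S100a8 minimum cut through a continuous range. The 6 barcodes at exactly 10 UMIs had a median of 8.5 UMIs of S100a9, and 4 of them carried at least 2 of Csf3r, Cxcr2, Retnlg and G0s2. The 4 barcodes just outside, at 9 UMIs, also had a median of 8.5 UMIs of S100a9, and 1 carried at least 2 of these. At the hashtag threshold the nearest members and non-members had 85.2% and 84.9%. Of the 3018 unannotated barcodes with a clear hashtag, 2836 had no S100a8 at all and 112 had 1 to 9 UMIs.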

How the data were processed

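Values are UMI counts per feature and droplet, deposited unfiltered by the authors. They were made with Cell Ranger 9.0.0, as given per the file headers, against GRCh38 and GRCm39 together, as listed per the submitters' processing notes. The procedures for annotating cells and treating doublets are not given in the sources used here. No doublet caller was run, and the hashtag minimum acts only on doublets between mice. Mice were taken from the 12 runs of rising barcodes in the annotation and numbered as replicates in run order within a treatment. In library 2 the hashtags of 10476 of 10476 annotated cells matched. The annotations of both libraries share 34 barcodes, none of them a neutrophil barcode.

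CPM was computed here from pooled counts over human and mouse genes. Intervals (exact Poisson, or Clopper-Pearson for shares) cover counting error only. A gene is called at a 4-fold ratio, a count under 3 in the lower group being set to 3. Genes named are the 6 markers, the FCGR genes and Fcer1g, the 15 highest levels, the 15 highest ratios and the 4 highest per list. Further list members, genes of the 8 largest barcodes and the split at 5000 UMIs were picked with their values known. Members and lists were chosen with earlier results of these data known. Calls and thinning were tested on simulated data with 200 changed genes. Alternatives were other minimums of UMIs, hashtag share and S100a8, each mouse left out, other scalings, other comparison cells and another thinning depth. Python 3.11.15, numpy 2.4.6, scipy 1.17.1, pandas 2.3.3 and matplotlib 3.10.9 were used.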

Additional observations from a re-analysis of the deposited data

How the results depend on the processing

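The 70 barcodes and the 51 from GA-aFuc replicate 3 gave the number, the 72.9%, the 2.36% and a sum of 17180 CPM for S100a9, Csf3r, Cxcr2, Retnlg and G0s2. A hashtag share of at least 95% left 6 barcodes, 100.0% of them from that mouse, at 0.442% of its barcodes and 19450 CPM for the 5 markers. A share of at least 70% gave 13910 CPM. At least 20 S100a8 UMIs gave 1.67% and 21150 CPM, at least 5 gave 15470 CPM, and at least 2 of the 4 other markers gave 1.71% and 16280 CPM. Under 5000 UMIs, an alternative chosen after seeing the data, the sum was 28630 CPM, and the mean of each barcode's CPM gave 26330. Outside the 95% setting, the leading mouse kept 67.8 to 76.7% of the barcodes under the other planned minimums. Leaving out 1 mouse gave 19 to 68 barcodes (19 without GA-aFuc replicate 3), with 75 to 79.7% from the leading mouse where it was kept. The sum ran from 10480 CPM (without GA-aFuc replicate 3) to 20710 CPM (without GA-aFuc replicate 2). The 2.36% is a share within GA-aFuc replicate 3, so leaving out another mouse could not change it. A minimum of 50 UMIs gave 90 higher genes in place of 160, since fewer genes are tested. Thinning to 1000 UMIs put FCGR3B in 67.7% of the 70 barcodes in place of 54.6%. Of 99 alternatives for single genes, 50 stayed within the counting interval. Minimums of 300 and 1000 UMIs chose the same 70 barcodes, so gene levels could not move at those settings. Where no cause is given, the cause was not tested. No test was run, so no paired analysis was made. Ratios of the leading mouse were against its own monocytes, and most other levels were set against monocytes pooled over all mice. Depth limits genes absent from the 62 barcodes to 22.2 CPM.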

Other observations

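A further set of unannotated barcodes resembled neutrophils without the S100a8 used to choose the 70. Among the unannotated barcodes with a clear hashtag and fewer than 10 S100a8 UMIs, 28 carried at least 3 of Csf3r, Cxcr2, Retnlg and G0s2, and 21 of the 28 were from GA-aFuc replicate 3, 5 from N297A replicate 3 and 2 from GITR/Syn GA-aFuc replicate 2. This set was chosen after seeing the data and on these markers, so the levels of these markers are no result. In the 24 of these under 5000 UMIs, with 913 to 4158 UMIs, S100a8 was 712 CPM (523 to 947) and S100a9 2969 CPM, and S100a9 had a median of 0 UMIs. Several genes that did not choose them were at levels near those of the 62 neutrophil barcodes or above. Cxcl2 was 36850 CPM (35400 to 38350) against 40780 CPM in the 62, and Ccl3 was 5937 CPM (5364 to 6555) against 5511 CPM. Il1b was 16840 CPM (15870 to 17860) against 10050 CPM, Ccl4 17630 CPM against 8240 CPM, and Cd274, encoding PD-L1, 2484 CPM (2118 to 2895) against 1376 CPM.

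Other genes were lower in the 24. Hilpda, the lipid droplet gene, was 1045 CPM (813 to 1323) against 3450 CPM, the cystatin genes Cstdc4 and Cstb were 333 and 1151 CPM against 2332 and 2200 CPM, and Slpi 727 CPM against 1749 CPM. The sum of interferon-response genes was 26840 CPM (25600 to 28120) against 15550 CPM. FCGR3B was 2787 CPM (2399 to 3220) against 2939 CPM. Macrophage genes summed to 984 CPM against 1442 CPM, T cell genes had 2 UMIs and primary granule genes none. Intervals cover counting error only, and most of both sets are from 1 mouse. The number of neutrophil barcodes in the text is thus a count of S100a8-rich barcodes.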
